A study of Mus musculus with 17 samples.

Results

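The endothelial and haemangioblast receptor genes described here were Kdr, Tek, Tie1, Flt1, Pecam1, Cdh5, Eng, Emcn, Cd34 and Sox17, a set of 10 named genes among the 26029 genes of the model 1 count table and the 24659 genes of the model 2 table. They were chosen by name, with their CPM across the 5 groups of these same libraries and the changes between the groups already known, so their levels and fold changes are a description and carry no p-value. Of the 10, 9 had a row in the model 1 table and 7 in the model 2 table. Emcn had no row in either, and Tie1 and Sox17 had none in model 2.

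RNA-seq was performed on erythroid blasts cultured with EPO, and every group, controls included, carried the Spi1 transgene (TgSpi1). The counts fitted here held 1 library per mouse from 17 mice, and further counts of some of these mice are described below. Libraries are named here by the last part of their titles. In model 1 (DBA2JxFVB/N background), the 4 preleukaemic TgSpi1FA+/+ libraries were preleukemic_445, preleukemic_479, preleukemic_451 and preleukemic_138. Loss of Fanca (FA-/-) was represented at the preleukaemic stage by preleukemic_77, preleukemic_224 and preleukemic_40 and at the leukaemic stage by leukemic_26, leukemic_28 and leukemic_39. Model 2 (DBA2J background) was TgSpi1FA+/+ throughout, with preleukemic_633, preleukemic_663, preleukemic_812 and preleukemic_837 before and leukemic_601, leukemic_606 and leukemic_921 after the emergence of leukaemic cells, which followed serial blood transfusions. The models also differed in the amount of RNA and the fragmentation time, so model, strain and library preparation cannot be told apart. The p-values below measure the spread between libraries of a group, each taken as 1 mouse with 1 culture. For preleukemic_445 and preleukemic_479, whose counts differed little as described below, this may not be a spread between mice.

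Kdr (VEGFR2) and Flt1 (VEGFR1) encode the receptor tyrosine kinases for vascular endothelial growth factors. Kdr marks the mesodermal progenitor from which blood and endothelium both arise, the haemangioblast. Tek (TIE2) is the receptor for angiopoietins and Tie1 its orphan partner. Eng (endoglin) is a co-receptor for BMP9, BMP10 and TGF-beta, and Cdh5 (VE-cadherin) and Pecam1 (CD31) hold endothelial junctions together. Cd34 and Emcn are sialomucins, and Sox17 is a transcription factor of arterial endothelium and early haematopoiesis. Tek, Eng, Pecam1 and Cd34 are also made by haematopoietic progenitors, and Eng by early erythroid cells.

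The promoters of the 4 receptors that reached a mean of 1 CPM in a group are shown, a CPM being a count scaled to library size, because SPI1 is a factor of the ETS family, whose core motif is GGAA. Letters in capitals mark GGAA or its reverse complement TTCC. The motif AGATAA, to which GATA factors bind, is in capitals too, in either orientation. Each sequence is the RefSeq GRCm38.p6 window from 250 bases before to 50 bases after the annotated start, written 5' to 3' on the gene's own strand. Kdr lies at chr5:75978406-75978705 (minus strand), Flt1 at chr5:147725962-147726261 (minus strand), Tek at chr4:94739039-94739338 (plus strand) and Eng at chr2:32646345-32646644 (plus strand).
Kdr: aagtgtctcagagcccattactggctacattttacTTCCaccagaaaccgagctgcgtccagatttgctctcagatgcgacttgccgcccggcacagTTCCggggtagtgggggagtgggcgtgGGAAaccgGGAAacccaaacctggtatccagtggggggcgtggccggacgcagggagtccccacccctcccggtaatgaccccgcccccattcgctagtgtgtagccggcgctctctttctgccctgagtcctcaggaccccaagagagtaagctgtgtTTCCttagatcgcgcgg
Flt1: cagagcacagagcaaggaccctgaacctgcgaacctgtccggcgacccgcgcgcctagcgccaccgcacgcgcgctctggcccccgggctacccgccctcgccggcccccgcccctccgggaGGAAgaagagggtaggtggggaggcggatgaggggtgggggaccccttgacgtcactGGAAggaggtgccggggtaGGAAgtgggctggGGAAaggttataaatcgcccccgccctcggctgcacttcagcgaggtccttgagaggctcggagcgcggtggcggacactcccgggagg
Tek: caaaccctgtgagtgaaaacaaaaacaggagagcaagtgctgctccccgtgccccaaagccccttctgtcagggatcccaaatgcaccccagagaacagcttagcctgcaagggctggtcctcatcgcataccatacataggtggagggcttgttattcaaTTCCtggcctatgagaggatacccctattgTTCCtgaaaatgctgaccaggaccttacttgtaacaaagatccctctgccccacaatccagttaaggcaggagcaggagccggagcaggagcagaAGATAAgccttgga
Eng: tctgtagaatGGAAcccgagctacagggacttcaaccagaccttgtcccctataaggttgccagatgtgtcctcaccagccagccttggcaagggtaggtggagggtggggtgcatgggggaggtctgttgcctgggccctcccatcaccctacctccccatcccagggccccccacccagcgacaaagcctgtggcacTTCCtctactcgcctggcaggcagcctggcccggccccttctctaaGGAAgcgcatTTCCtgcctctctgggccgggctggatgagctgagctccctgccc

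RefSeq gave such a window for 7 of the 10 genes. GGAA was found on either strand 5 times in the window of Kdr, 4 times in those of Flt1 and Eng, 2 times in that of Tek, 9 times in that of Tie1, 6 times in that of Emcn and 5 times in that of Cd34. This motif was present in 96.0% of 32851 promoter windows of the same length, so its presence sets none of these genes apart. The longer PU-box core GAGGAA, which contains GGAA, was present in the windows of Flt1, Eng, Tie1 and Emcn and absent from those of Kdr, Tek and Cd34, against 28.3% of all windows. AGATAA was present in that of Tek, against 11.2% of all windows, and the E-box CANNTG in those of Kdr, Tek, Tie1, Eng and Emcn, against 72.3%. These are matches of letters and not measured binding.

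Total counts per library lay between 29964576 and 38217654 in model 1 and between 37726753 and 40514205 in model 2. Levels are given as CPM, the counts per 1000000 of the TMM-normalised library size, and 3 counts correspond to 0.0761 to 0.0985 CPM in model 1 and to 0.0742 to 0.0851 CPM in model 2. A group with no more than 3 counts in any library is treated as at this floor. Floors and intervals cover counting error only. Fanca was at 0.615 to 2.30 CPM in the 6 TgSpi1FA-/- libraries and at 28.2 to 83.5 CPM in the 4 TgSpi1FA+/+ libraries of model 1. Spi1 was at 220 to 1060 CPM in 9 libraries of model 1 and at 3.88 CPM in leukemic_39, and at 103 to 332 CPM in model 2.

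The labels and libraries raised 2 points that bear on what follows. The stage of preleukemic_77, preleukemic_224 and preleukemic_40 is preleukaemic in their titles and leukaemic in other fields and in the column names. Preleukaemic was used. Values against the TgSpi1FA+/+ preleukaemic mice are given for some single genes and, further below, for the called partner genes as a set. The counts of preleukemic_445 and preleukemic_479 differed little. Their chi-square divided by its degrees of freedom was 8.53, whereas it lay between 114 and 372 for the other pairs within groups of model 1. A 7-library table of further counts of model 1 mice was also deposited, in which it was 349.7 for this same pair. Over 11947 genes, preleukemic_445 of the 10-library table was nearer to preleukemic_479 of the 7-library table (root mean square difference of 0.52 on the log2 scale) than to preleukemic_445 itself (0.68), and the other 6 mice were nearest to themselves.

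Kdr had the highest mean level of the members in the TgSpi1FA-/- leukaemic cells of model 1 and 0 counts in the leukaemic cells of model 2. Its gene is on the minus strand at chr5:75932827-75978458 (GRCm38), 276 kb from Kit. Libraries leukemic_26, leukemic_28 and leukemic_39 had 7.32, 26.7 and 34.6 CPM (267, 1045 and 1362 counts). The TgSpi1FA-/- libraries preleukemic_77, preleukemic_224 and preleukemic_40 had 0.427, 0.643 and 0.324 CPM, and the TgSpi1FA+/+ libraries preleukemic_445, preleukemic_479, preleukemic_451 and preleukemic_138 had 1.34, 1.33, 0.673 and 3.35 CPM. Each leukaemic library was thus above all 7 preleukaemic libraries of model 1.

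The mean of Kdr was 22.9 ± 14.0 CPM (SD, n = 3) in TgSpi1FA-/- leukaemic, 0.465 ± 0.163 (SD, n = 3) in TgSpi1FA-/- preleukaemic and 1.68 ± 1.16 (SD, n = 4) in TgSpi1FA+/+ preleukaemic cells. The fitted log2 fold change was 5.61 (SE 0.82) between the leukaemic and preleukaemic TgSpi1FA-/- cells and 3.77 (SE 0.72) when the leukaemic cells were set against the TgSpi1FA+/+ preleukaemic cells. Between the preleukaemic genotypes it was -1.84 (SE 0.68), with the TgSpi1FA-/- libraries all below the TgSpi1FA+/+ ones. The last value was -1.25 without preleukemic_138, and the TgSpi1FA+/+ mean was 1.79 ± 1.40 CPM (SD, n = 3) without preleukemic_445.

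In model 2, Kdr had 1.41, 0.25, 0.0533 and 0.198 CPM in preleukemic_633, preleukemic_663, preleukemic_812 and preleukemic_837 (56, 10, 2 and 8 counts) and 0 counts in each of the 3 leukaemic libraries. Against the floor of 3 counts per library, this is a level at least 6.02-fold lower in the leukaemic cells. The bound was 2.10-fold without preleukemic_633, the library with most of the counts. Kdr did not pass the filter on low counts in this model and was not fitted there.

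Flt1 (chr5:147561604-147726011, minus strand) was seen above the floor in 2 libraries of the 17. Library leukemic_28 had 3.02 CPM (118 counts), leukemic_39 had 0.482 CPM (19 counts) and leukemic_26 had 0. A single count was present in preleukemic_224, another in preleukemic_633 of model 2, and every other library had 0. Summed over libraries, the leukaemic against preleukaemic ratio in TgSpi1FA-/- cells was 114 with a 95% exact counting interval from 20.1 to 4528, on 137 counts against 1. The 2 libraries with Flt1 were also the 2 with the highest Kdr.

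**Figure D1:**
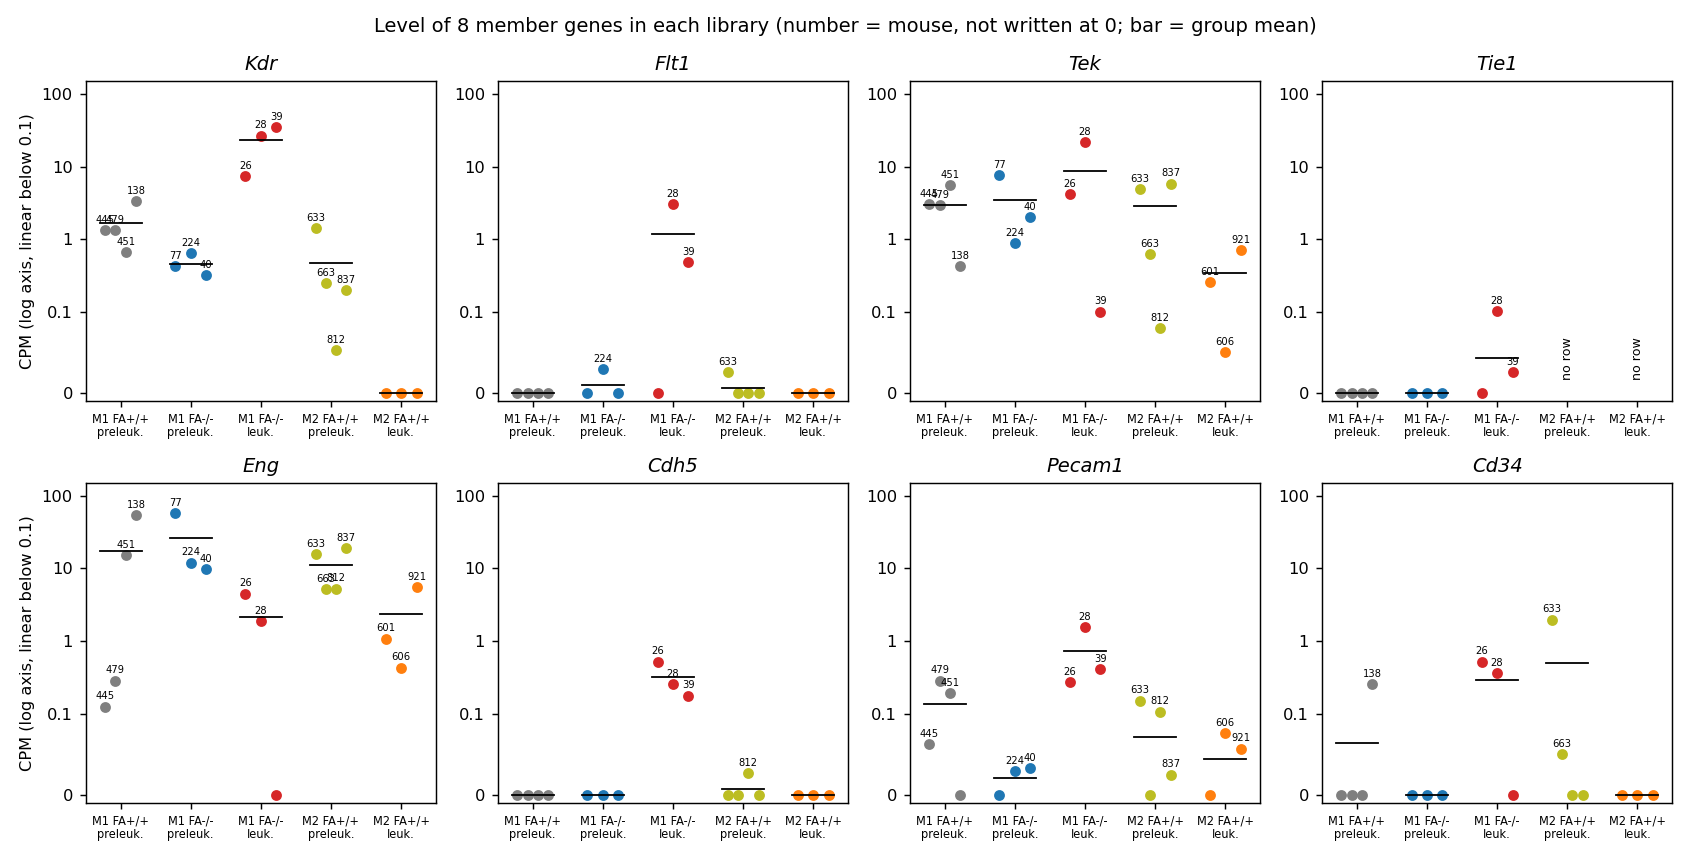
CPM of 8 member genes (log axis, linear below 0.1) in each library, by group, where M1 and M2 are the models, each point is 1 mouse with its number and the bar is the group mean. Kdr was at 7.32 to 34.6 CPM in the 3 M1 leukaemic libraries and at 0 in the 3 M2 leukaemic libraries, whereas Eng was at 0 to 4.49 CPM and at 0.432 to 5.51 CPM there.

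Tek (chr4:94739289-94874976, plus strand) varied widely within every group. In TgSpi1FA-/- leukemic_26, leukemic_28 and leukemic_39 it had 4.14, 21.4 and 0.101 CPM. The TgSpi1FA-/- preleukaemic libraries had 7.55, 0.877 and 2.04 CPM in preleukemic_77, preleukemic_224 and preleukemic_40, and the TgSpi1FA+/+ preleukaemic ones 3.03, 2.95, 5.54 and 0.426 CPM in preleukemic_445, preleukemic_479, preleukemic_451 and preleukemic_138. Library leukemic_28 was thus the highest and leukemic_39 the lowest library of model 1, and all 3 groups overlapped.

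In TgSpi1FA-/- cells the mean of Tek was 8.56 ± 11.3 CPM at the leukaemic and 3.49 ± 3.57 CPM at the preleukaemic stage (SD, n = 3 each). The log2 fold change was 1.29 (SE 1.45) and became -0.68 without leukemic_28. In model 2 Tek had 4.89, 0.6248, 0.08 and 5.81 CPM in the preleukaemic and 0.257, 0.0508 and 0.71 CPM in the leukaemic libraries, a log2 fold change of -3.07 (SE 1.47) with groups that overlapped. Tie1 had 4 counts in leukemic_28, 1 in leukemic_39 and 0 in the other 8 libraries of model 1.

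Eng (chr2:32646595-32682669, plus strand) had a lower mean in leukaemic than in preleukaemic cells in both models. In model 1 it had 4.49, 1.87 and 0 CPM in leukemic_26, leukemic_28 and leukemic_39 (164, 73 and 0 counts), and 56.8, 12.0 and 9.74 CPM in TgSpi1FA-/- preleukemic_77, preleukemic_224 and preleukemic_40. In the TgSpi1FA+/+ preleukaemic mice it had 15.03 and 53.4 CPM in preleukemic_451 and preleukemic_138, but 0.125 and 0.286 CPM in preleukemic_445 and preleukemic_479, the pair described above. Library leukemic_39, with 0 counts of Eng, was also the library with the lowest Spi1, and the part of Spi1 in this was not tested.

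In TgSpi1FA-/- cells the mean of Eng was 2.12 ± 2.26 CPM at the leukaemic and 26.2 ± 26.5 CPM at the preleukaemic stage (SD, n = 3 each), a log2 fold change of -3.62 (SE 2.15) with groups that did not overlap. Against the TgSpi1FA+/+ preleukaemic cells, with preleukemic_445 and preleukemic_479 below leukemic_26, it was -3.03 (SE 2.25). Between the preleukaemic genotypes the log2 fold change was 0.60 (SE 1.80), and -0.67 without preleukemic_77. The TgSpi1FA+/+ mean was 17.2 ± 25.1 CPM (SD, n = 4), and 22.9 ± 27.4 (SD, n = 3) without preleukemic_445. In model 2 Eng had 15.5, 5.17, 5.25 and 19.0 CPM in the preleukaemic and 1.08, 0.432 and 5.51 CPM in the leukaemic libraries. The model 2 means were 11.2 ± 7.09 (SD, n = 4) and 2.34 ± 2.76 (SD, n = 3), a log2 fold change of -2.26 (SE 0.97), with leukemic_921 within the range of the preleukaemic libraries. Without leukemic_921 it was -3.88.

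The junction genes were low in all libraries. Cdh5 (chr8:104101625-104144511, plus strand, 19.1 Mb from Fanca) had 19, 10 and 7 counts in leukemic_26, leukemic_28 and leukemic_39 (0.521, 0.256 and 0.178 CPM) and 0 counts in all 7 preleukaemic libraries of model 1. It was at least 3.37-fold higher in the leukaemic cells against the floor, and at least 2.29-fold without leukemic_26. In model 2 it had 1 count in preleukemic_812 and 0 elsewhere. The leukaemic libraries of model 1 were thus the only ones of the 17 with more than 3 counts of Cdh5.

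Pecam1 (chr11:106654217-106750628, minus strand) had 0.274, 1.53 and 0.406 CPM in leukemic_26, leukemic_28 and leukemic_39 (10, 60 and 16 counts), against 0, 1 and 1 counts in TgSpi1FA-/- preleukemic_77, preleukemic_224 and preleukemic_40. The ratio of summed counts was 35.7 (95% exact counting interval 9.59 to 299.7). The TgSpi1FA+/+ preleukaemic libraries had 2, 9, 6 and 0 counts, so that preleukemic_479 overlapped with leukemic_26 in CPM (0.286 against 0.274). The TgSpi1FA-/- preleukaemic libraries were below them in summed counts, by a ratio of 0.16 (interval 0.0179 to 0.674), but the 2 groups overlapped. These intervals leave out the spread between mice and are no test of a group difference. In model 2 there were 6, 0, 4 and 1 counts in preleukaemic and 0, 3 and 2 counts in leukaemic libraries. The ratio of summed counts was 0.631 with a counting interval from 0.172 to 1.97, and the groups overlapped.

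Cd34 (chr1:194938819-194961279, plus strand) had 0.521, 0.358 and 0 CPM in leukemic_26, leukemic_28 and leukemic_39 (19, 14 and 0 counts) and 0 counts in each TgSpi1FA-/- preleukaemic library, at least 3.10-fold higher against the floor and at least 1.90-fold without leukemic_26. Among the TgSpi1FA+/+ preleukaemic mice, preleukemic_138 had 9 counts (0.256 CPM) and the other 3 had 0. In model 2 nearly all counts were those of preleukemic_633, with 78 (1.97 CPM), and the leukaemic libraries had 0. The bound of at least 6.35-fold lower in the leukaemic cells of model 2 rested on preleukemic_633, since the other preleukaemic libraries had at most 2 counts. Sox17 (chr1:4490931-4497354, minus strand) had 1 count in leukemic_28 and none in the other libraries of model 1.

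Each member was also set against the others per kb of merged exon, since the genes differ in length. In TgSpi1FA-/- leukaemic cells the mean CPM per kb was 2.53 for Kdr, 1.82 for Tek, 0.524 for Eng, 0.119 for Pecam1, 0.0863 for Flt1, 0.0756 for Cdh5, 0.0402 for Cd34, 0.00865 for Tie1 and 0.00179 for Sox17. In the TgSpi1FA-/- preleukaemic cells the order began with Eng at 6.46, followed by Tek at 0.74 and Kdr at 0.0514 CPM per kb. The order among leukaemic libraries was not fixed. Kdr per kb was 0.81, 2.96 and 3.83 in leukemic_26, leukemic_28 and leukemic_39 and Tek per kb was 0.878, 4.55 and 0.0215, so these neighbours did not differ beyond their spread. Eng per kb was 1.11, 0.461 and 0 and overlapped with Kdr in leukemic_26.

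The 3 leukaemic libraries of model 1 therefore differed in which members they carried. Library leukemic_26 had the highest Cdh5, Cd34 and Eng of the 3 and the lowest Kdr. Library leukemic_28 had the highest Tek, Tie1, Flt1 and Pecam1, and leukemic_39 had the highest Kdr with 4 counts of Tek and none of Eng or Cd34. No library held all 9 measured members above the floor.

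By the rule used for all genes (edgeR's quasi-likelihood test with a Benjamini-Hochberg adjusted p below 0.05, and a change of 1.5-fold or more), 1 of the 3 members that passed the filter was called between leukaemic and preleukaemic TgSpi1FA-/- cells (Kdr), where 13.3% of the 13393 genes tested were called. The groups did not overlap, with the leukaemic libraries higher, for 3 members (Kdr, Pecam1 and Cdh5), of which Kdr passed the filter, against 19.4% of the genes tested. They did not overlap with the leukaemic libraries lower for 1 member (Eng), against 19.3%. Between the preleukaemic genotypes no member was called, against 0.00747% of genes, and 1 member did not overlap with the TgSpi1FA-/- libraries lower (Kdr), against 4.27%. In model 2 none of the 2 members tested was called, nor was any of 12970 genes (0.0%), and 1 member, Kdr, which did not pass the filter, did not overlap with the leukaemic libraries lower, against 10.4% of the genes tested. For the leukaemic change in model 1 minus that in model 2, 1 of 5 members tested was called (Kdr), against 4.61% of 14597 genes. Since the members were selected on these contrasts, nothing is read from these counts.

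The 7-library table gave other counts for 7 of these mice, from 35497594 to 171572736 in total per library. Kdr was at 2.69, 17.4 and 14.97 CPM in leukemic_26, leukemic_28 and leukemic_39 there, and at 0.0569, 0.774, 0.599 and 2.85 CPM in TgSpi1FA+/+ preleukemic_445, preleukemic_479, preleukemic_451 and preleukemic_138. Library leukemic_26 was then below preleukemic_138, which was not so in the 10-library table. The means were 11.7 ± 7.87 (SD, n = 3) and 1.07 ± 1.22 CPM (SD, n = 4).

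The leukaemic library with the highest Kdr was leukemic_39 in the 10-library table and leukemic_28 in the 7-library table. For 7 other members the same leukaemic library was highest in both tables. It was leukemic_28 for Tek, Tie1, Flt1 and Pecam1, with 22.5 CPM of Tek and 0.717 CPM of Flt1 in the 7-library table, and leukemic_26 for Cdh5 (0.74 CPM there), Eng and Cd34. Eng was at 13.5, 3.34 and 0.082 CPM in leukemic_26, leukemic_28 and leukemic_39 of the 7-library table. In preleukemic_445 it was at 25.8 CPM there against 0.125 CPM in the 10-library table, and in preleukemic_479 at 2.88 against 0.286 CPM. Sox17 had 2 and 3 counts in leukemic_28 and leukemic_39 of the 7-library table.

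**Figure D2:**
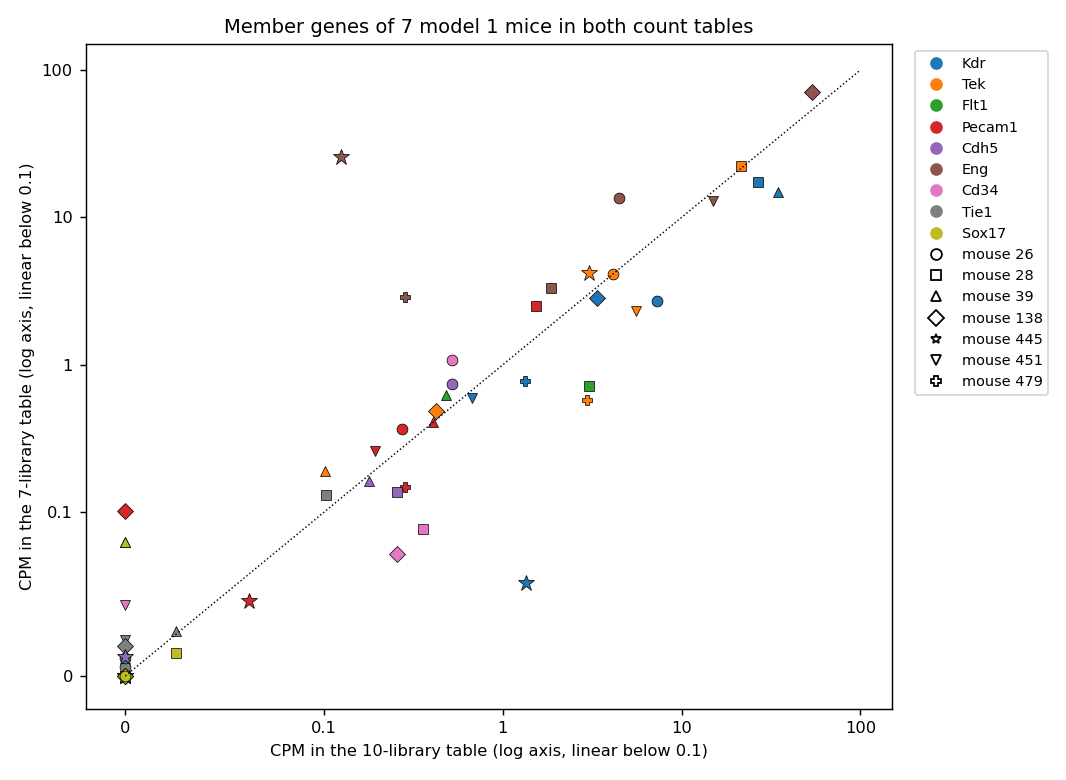
CPM of the 9 measured members for 7 mice of model 1 in the 10-library table (horizontal, log axis, linear below 0.1) and in the 7-library table (vertical, same scale), with colour for the gene, symbol for the mouse and a dotted line where both tables are equal. Eng of preleukemic_445, at 0.125 CPM in one table and 25.8 CPM in the other, and Kdr of preleukemic_445, at 1.34 and 0.0569 CPM, lie far from the line.

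Genes that work with these receptors were taken from 8 lists of 104 partner genes, which were likewise assembled with earlier results of these data known. In the comparison of leukaemic with preleukaemic TgSpi1FA-/- cells, 55 partner genes passed the filter, of which 11 rose, 4 fell and 40 did not pass the test. The share called among all 13393 genes tested was 13.3%, which also stands beside the counts per list below. The median log2 fold change of the 55 partner genes was 1.17, against 0.00 for all genes tested. In model 2, 47 were tested, with a median of -0.53 against -0.03. Since the lists were assembled with results of these data known, nothing is read from these medians or from the counts of partner genes called. The number of calls depended on single libraries, with 5 in place of 15 without leukemic_28 or without preleukemic_224, 6 without preleukemic_40, 8 without leukemic_39, 9 without preleukemic_77 and 19 without leukemic_26.

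Among the VEGF ligands and co-receptors, 1 of 2 genes tested rose. Vegfa, the main ligand of the KDR protein, was at 87.6, 66.8 and 56.1 CPM in leukemic_26, leukemic_28 and leukemic_39 and at 38.1, 17.9 and 29.7 CPM in preleukemic_77, preleukemic_224 and preleukemic_40, with a log2 fold change of 1.29 (SE 0.30, adjusted p = 0.0267). In these counts every leukaemic library was above every preleukaemic one of model 1, where the highest was 43.4 CPM in preleukemic_138. This was not so in the further counts of model 1 mice described above. There Vegfa was at 82.0 CPM in preleukemic_138, above leukemic_26 (56.25 CPM) and leukemic_28 (53.59 CPM) and below leukemic_39 (121.1 CPM). The other TgSpi1FA+/+ preleukaemic libraries had at most 34.26 CPM there. Vegfb, a ligand of FLT1, had a log2 fold change of 0.75 (adjusted p = 0.172). The co-receptor Nrp2 and Flt4, the receptor of lymphatic endothelium, did not pass the filter. Nrp2 averaged 1.59 ± 2.52 CPM in the leukaemic libraries (SD, n = 3) and was at 0 in each preleukaemic library of model 1, and Flt4 averaged 0.468 ± 0.545 CPM and was at 0 in the TgSpi1FA-/- preleukaemic ones.

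Of the angiopoietin list, 1 gene of 4 was measured well enough to test. Angpt1, the activating ligand of TIE2, averaged 8.66 ± 9.94 CPM in leukemic_26, leukemic_28 and leukemic_39 and 107.6 ± 28.4 CPM in preleukemic_77, preleukemic_224 and preleukemic_40 (SD, n = 3 each), a log2 fold change of -3.63 (SE 1.39) that did not pass the test (adjusted p = 0.107). Its level in the TgSpi1FA+/+ preleukaemic libraries was in between, at 49.7 ± 27.7 CPM (SD, n = 4).

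In the list of BMP and TGF-beta signalling around endoglin, 2 of 11 genes tested rose and none fell. Smad4, the common mediator of both pathways, rose from 41.9 ± 12.0 to 103.7 ± 13.9 CPM (SD, n = 3 each), a log2 fold change of 1.31 (SE 0.24, adjusted p = 0.0138). Tgfbr3 (betaglycan), a co-receptor related to endoglin, was at 78.1, 37.8 and 37.5 CPM in leukemic_26, leukemic_28 and leukemic_39 and at 0.427, 0 and 2.52 CPM in preleukemic_77, preleukemic_224 and preleukemic_40, with a log2 fold change of 5.70 (SE 1.65, adjusted p = 0.0489). Against the TgSpi1FA+/+ preleukaemic libraries, which had 68.8, 61.2, 0.994 and 50.4 CPM, its log2 fold change was 0.17 (SE 1.03). Tgfb1, Id1, Bmpr2 and Tgfbr1 were the highest genes of this list that did not pass the test, with log2 fold changes of -0.91, 1.17, -0.04 and 1.28. Id1 encodes a target of BMP signalling.

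None of the 7 junction genes tested passed. Ptpn11 and Ptpn6, phosphatases that bind PECAM1, had log2 fold changes of 0.41 (adjusted p = 0.0705) and -1.34 (adjusted p = 0.0676), and F11r and Ctnnd1 had 2.68 and 0.48.

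Of the CD34 family and vascular adhesion genes, 3 of 4 tested rose. Podxl, a sialomucin of the CD34 family, was the most abundant of them, at 1059, 1049 and 1184 CPM in the leukaemic and 497, 328 and 233 CPM in the TgSpi1FA-/- preleukaemic libraries, with a log2 fold change of 1.64 (SE 0.26, adjusted p = 0.00974). Mcam (CD146), an adhesion molecule of endothelium, had 0.685, 2.61 and 15.6 CPM in leukemic_26, leukemic_28 and leukemic_39 and a single count in the TgSpi1FA-/- preleukaemic libraries. The ratio of its summed counts was 616 with a 95% exact counting interval from 110.2 to 24350 (adjusted p of the fit 0.0262). Cd99l2 rose by a log2 fold change of 0.83 (SE 0.18, adjusted p = 0.0216).

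Among the haemangioblast and endothelial transcription factors, 2 of 17 tested rose and 2 fell. Hhex, a homeobox factor of the haemangioblast, was at 59.4, 118 and 124 CPM in the leukaemic and 29.6, 14.8 and 7.34 CPM in the TgSpi1FA-/- preleukaemic libraries (log2 fold change 2.54, SE 0.62, adjusted p = 0.0309). Ets1, an ETS factor of endothelium, had a log2 fold change of 2.07 (SE 0.56, adjusted p = 0.0405). Lmo2 and Gfi1b, regulators of early haematopoiesis that act with TAL1 in erythroid cells, fell by 1.01 (SE 0.24, adjusted p = 0.0295) and 0.75 (SE 0.13, adjusted p = 0.0127) on the log2 scale. Tal1, Ldb1 and Lyl1 had log2 fold changes of -0.47, -0.45 and -0.48 and did not pass the test, nor did Gata2 with 2.20 (SE 1.54).

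Of 6 other endothelial markers tested, 2 rose and 1 fell. Egfl7, a secreted factor of endothelium, was at 11.5, 75.4 and 103 CPM in leukemic_26, leukemic_28 and leukemic_39 and at 0.263, 0.263 and 2.17 CPM in preleukemic_77, preleukemic_224 and preleukemic_40 (log2 fold change 6.14, SE 1.21, adjusted p = 0.0169). In TgSpi1FA+/+ preleukemic_445, preleukemic_479, preleukemic_451 and preleukemic_138 it was at 5.30, 3.36, 14.45 and 5.08 CPM, so that preleukemic_451 was above leukemic_26. In model 2 it reached 38.95 CPM in preleukemic_633. Vwf, made by endothelium and megakaryocytes, was at 1.10, 1.74 and 3.10 CPM in the leukaemic and at 0.46, 0.205 and 0.129 CPM in the preleukaemic libraries (log2 fold change 2.89, SE 0.71, adjusted p = 0.0308), but set against the TgSpi1FA+/+ preleukaemic cells, with 4.09, 3.71, 1.19 and 1.82 CPM, its log2 fold change was -0.45. Plvap, a component of endothelial diaphragms, fell from 40.4 ± 21.0 to 12.4 ± 2.37 CPM (SD, n = 3 each), by 1.71 on the log2 scale (SE 0.40, adjusted p = 0.0277). Stab2, a scavenger receptor of sinusoidal endothelium, had 0 counts in each leukaemic and at most 2 in a TgSpi1FA-/- preleukaemic library, so no fold is given, whereas the TgSpi1FA+/+ preleukaemic libraries averaged 6.44 ± 5.26 CPM (SD, n = 4). Against the latter it did not pass the test (adjusted p = 0.103). Dll4, a NOTCH ligand of arterial endothelium, and Nos3, the endothelial nitric oxide synthase, had log2 fold changes of 5.76 (SE 2.22) and 1.44 (SE 0.94) and did not pass the test (adjusted p = 0.108 and 0.324).

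Of the early blood progenitor genes, 1 of 7 tested rose and 1 fell. Itga2b (CD41), an integrin of the first haematopoietic cells and of megakaryocytes, was at 92.8, 243 and 203 CPM in the leukaemic and 20.6, 16.1 and 21.8 CPM in the TgSpi1FA-/- preleukaemic libraries, with a log2 fold change of 3.21 (SE 0.38, adjusted p = 0.00472). Myb, a factor of definitive progenitors, fell by 1.39 on the log2 scale (SE 0.24, adjusted p = 0.0119). Kit, a receptor gene near Kdr on chromosome 5, was at 429.6 ± 330.0 and 314 ± 55.7 CPM (SD, n = 3 each), a log2 fold change of 0.45 (adjusted p = 0.558). Spn, Meis1 and Hlf had -2.60 (SE 1.12), 1.76 (SE 1.78) and 5.42 (SE 1.90) and did not pass the test.

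**Figure D3:**
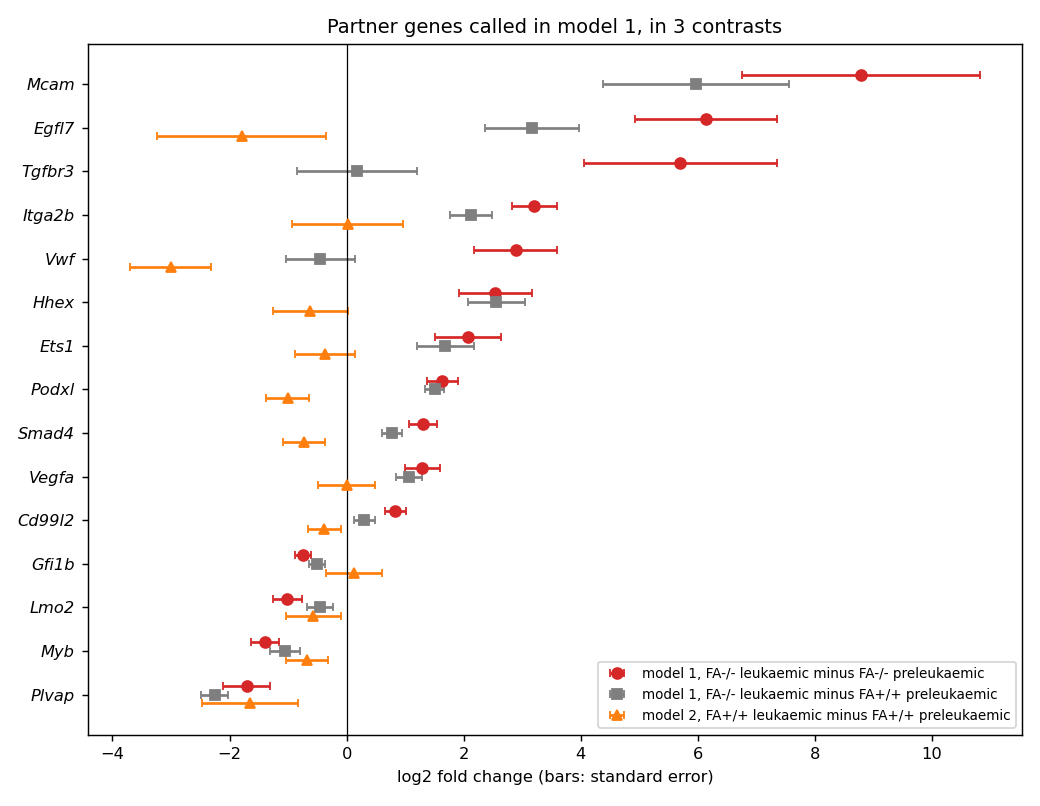
Log2 fold change with its standard error of the 15 partner genes called between leukaemic and preleukaemic TgSpi1FA-/- cells (circles), set beside the same leukaemic cells against TgSpi1FA+/+ preleukaemic cells (squares) and leukaemic against preleukaemic cells of model 2 (triangles, absent where a gene did not pass the filter). Egfl7 was at 6.14 (circle) and -1.79 (triangle), Vwf at 2.89 (circle) and -0.45 (square), and Plvap was below 0 in all 3.

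Itga2b, Podxl and Smad4 were the 3 of these 15 genes that passed under each of 12 other settings, such as another test or 1 library left out, with adjusted p of at most 0.0234, 0.0429 and 0.0497. None of these settings used the further counts of model 1 mice described above, which lack TgSpi1FA-/- preleukaemic libraries. In those counts Podxl was at 995.5 CPM in TgSpi1FA+/+ preleukemic_445, above 578 CPM in leukemic_39. Itga2b was at 154 CPM in preleukemic_138, above 124.3 CPM in leukemic_26. Smad4 did not overlap, with at most 61.59 CPM in preleukemic_445 and at least 61.91 CPM in leukemic_26. Set against the TgSpi1FA+/+ preleukaemic cells, without the 3 libraries whose stage is labelled in conflicting ways, 14 of the 15 genes had the same sign. Of the 15, 6 passed edgeR's test there (Hhex, Itga2b, Plvap, Podxl, Smad4 and Vegfa). Cd99l2, Egfl7, Ets1, Gfi1b, Lmo2, Mcam, Myb, Tgfbr3 and Vwf did not pass. The log2 fold change there was 0.30 for Cd99l2 (adjusted p = 0.319), -0.45 for Lmo2 (adjusted p = 0.252) and 3.17 for Egfl7 (adjusted p = 0.0658). In that contrast, in which stage and Fanca genotype both differ, 11 partner genes passed in all, including F11r, Klf2, Smad5, Smad7 and Tgfbr1. The share of all genes called in that contrast is not at hand, so nothing is read from its counts of partner genes.

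Between the preleukaemic genotypes, none of 55 partner genes passed edgeR's test, against 0.00747% of 13393 genes. Of the partner genes, 11 had an unadjusted p under 0.05 by edgeR, as had 1159 of all 13393 genes. DESeq2's Wald test called 3, all lower in TgSpi1FA-/- cells (Vwf, Egfl7 and Tgfbr3). Over 26029 genes it called 35 higher and 221 lower in these cells. In model 2 none of 47 passed edgeR's test, nor did any of 12970 genes (0.0%). Here 7 partner genes had an unadjusted p under 0.05 by edgeR, as had 2587 of all 12970 genes. DESeq2's Wald test called 3 partner genes, all lower in leukaemic cells (Vwf, Mef2c and Meis1). Over 23712 genes it called 151 higher and 319 lower in leukaemic cells. Nothing is read from these counts of partner genes. The difference between the leukaemic changes of model 1 and model 2 was tested for 58 partner genes, and 5 differed, each with the higher change in model 1. The share of all 14597 genes called in this contrast was 4.61%. Podxl was lower in leukaemic cells of model 2 (149.3 ± 40.02 against 299 ± 135 CPM, SD, n = 3 and 4), and its changes differed by 2.61 on the log2 scale (SE 0.47, adjusted p = 0.0285).

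For Vwf that difference was 5.86 (SE 1.01, adjusted p = 0.0285), with 0.103, 0.127 and 0.17 CPM in the leukaemic and 0.35 to 1.94 CPM in the preleukaemic libraries of model 2. It was 2.02 for Smad4 (SE 0.42, adjusted p = 0.0298), 7.90 for Egfl7 (SE 2.04, adjusted p = 0.0444) and 10.4 for Mcam (SE 2.61, adjusted p = 0.0413), the last resting on few counts. None of the 5 was called under every other setting. No partner gene passed without preleukemic_77, preleukemic_224, preleukemic_40, leukemic_28, leukemic_39, leukemic_601 or leukemic_921, 3 passed without preleukemic_633 or leukemic_606, and 8 without preleukemic_812.

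The genes next to the members were examined in the same comparison. Kdr has 3 tested genes within 250 kb of the gene, Srd5a3, Tmem165 and Clock, with log2 fold changes of 0.06 (SE 0.39), 0.59 (SE 0.27) and -1.29 (SE 0.45) between leukaemic and preleukaemic TgSpi1FA-/- cells, none of which passed the test. Eng has 16 such genes, none called, with a median of -0.09. The one with the lowest value was Ak1, 24.8 kb away between starts, with a log2 fold change of -2.65 (SE 1.08, adjusted p = 0.127). Over all members, 51 neighbouring genes were tested, with 3 called higher (Ift74, Ptprf and Cmtm4), 3 called lower (Elovl1, Pan3 and Slc46a3) and a median of -0.03. These 6 calls stand beside the 13.3% called among all genes tested, so the count is near that background and is not a result about the neighbours. In model 2, 50 were tested and 0 called by edgeR.

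**Figure D4:**
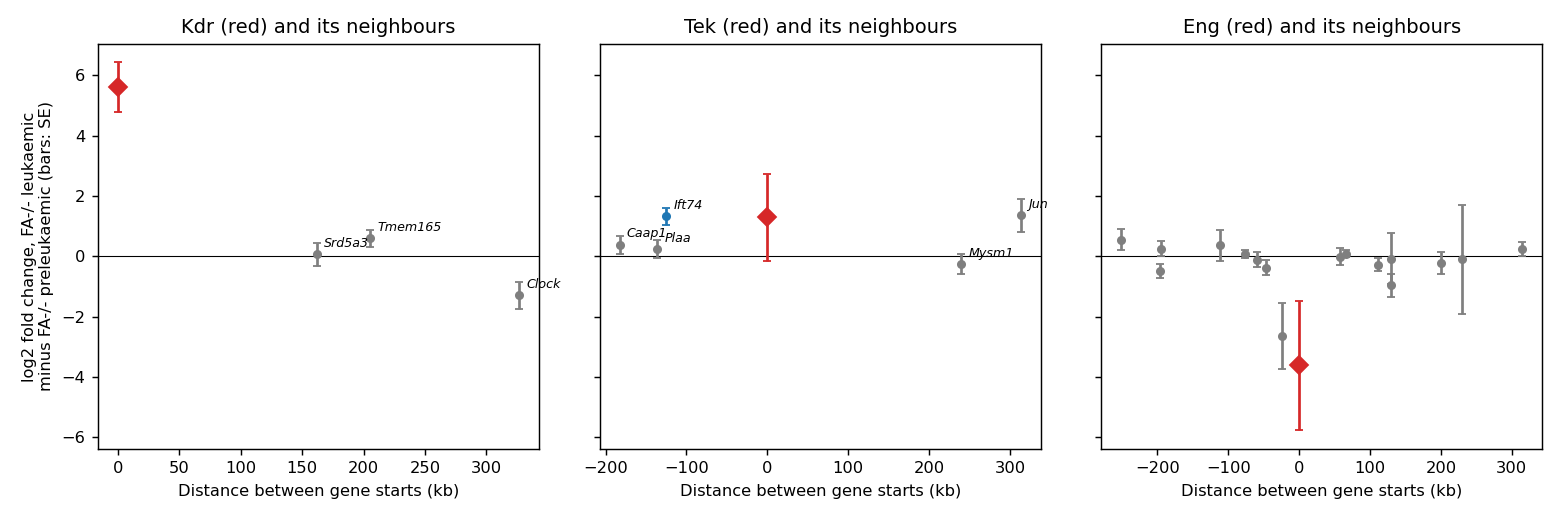
Log2 fold change with its standard error between leukaemic and preleukaemic TgSpi1FA-/- cells (vertical) against the distance between gene starts in kb along the reference (horizontal) for Kdr, Tek and Eng (diamonds) and the tested genes within 250 kb (circles, blue where called). Kdr was at 5.61 while its 3 neighbours were between -1.29 and 0.59, and Eng was at -3.62 while the median of its 16 neighbours was -0.09.

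For the members with at least 1 CPM in a group of model 1, the 2 genes of nearest pattern were sought among 12057 genes by the root mean square difference of log2(CPM + 0.5), centred on each gene's mean, over the 10 libraries. For Kdr, whose own spread on this scale was 1.89, they were Glis2 (0.36) and Usp44 (0.45). Glis2 was at 3.21 to 16.7 CPM in leukaemic libraries and at 0 in each TgSpi1FA-/- preleukaemic one. For Flt1 (own spread 0.86) they were Gstm2 (0.13) and Gpm6b (0.16). Tek (own spread 1.46) and Eng (own spread 2.41) had no gene nearer than 0.90 (Trim16) and 1.03 (Phlda2). These distances are a description over 10 libraries that share their groups.

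The erythroid label and the presence of other cell types were checked with marker lists. The 13 erythroid markers had a row each and summed to between 2241 and 10730 CPM, with 2241 to 5164 CPM in the leukaemic and 6084 to 9263 CPM in the preleukaemic libraries of model 1. The 15 endothelial markers, which include 6 of the members, summed to 16.7 to 43.3 CPM in TgSpi1FA-/- leukaemic, 18.0 to 57.8 in TgSpi1FA-/- preleukaemic and 47.9 to 76.6 CPM in TgSpi1FA+/+ preleukaemic libraries. Plvap made up most of this sum in the preleukaemic cells, and without it the ranges were 5.71 to 28.8, 1.58 to 8.24 and 2.75 to 7.86 CPM. In the leukaemic cells of model 1, Cldn5, Robo4 and Emcn had no row and Sox18 had 0 counts, while Esam reached 48 and Ramp2 8 counts. Of the 15, 10 had more than 3 counts in a leukaemic library of model 1 and 4 in one of model 2. Whether endothelial cells contributed to the members' levels was not tested, and fewer cells of a type and less RNA per cell cannot be told apart in these bulk samples.

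The 7 megakaryocyte markers, which share Itga2b with the partner genes, summed to 173 to 275 CPM in TgSpi1FA-/- leukaemic and 45.6 to 59.8 CPM in TgSpi1FA-/- preleukaemic libraries, and to 59.7 to 201 CPM in TgSpi1FA+/+ preleukaemic ones, with preleukemic_445 and preleukemic_479 the highest there. Stromal markers reached 276 CPM in preleukemic_40, 20.45 and 9.80 CPM in preleukemic_77 and preleukemic_224, and at most 6.01 CPM in leukaemic libraries of model 1. In TgSpi1FA+/+ preleukaemic libraries of model 1 they lay between 2.40 and 52.83 CPM, with preleukemic_445 and preleukemic_479 the highest. In model 2 they reached 31.7 CPM, in preleukemic_837. Macrophage markers lay between 2.17 and 9.89 CPM and lymphoid markers at or below 0.384 CPM in all 17 libraries. Mast cell markers summed to 92.1 to 154 CPM in the leukaemic and 3.71 to 59.1 CPM in the preleukaemic libraries of model 2. In model 1 they summed to 0.330 to 11.2 CPM in leukaemic libraries. There they summed to 1.97 to 31.55 CPM in TgSpi1FA-/- and 8.56 to 92.03 CPM in TgSpi1FA+/+ preleukaemic libraries. The highest sums of model 1 were those of preleukemic_138 and preleukemic_77, which also had the highest Eng. The part of these cell types in the members' levels was not tested.

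**Figure D5:**
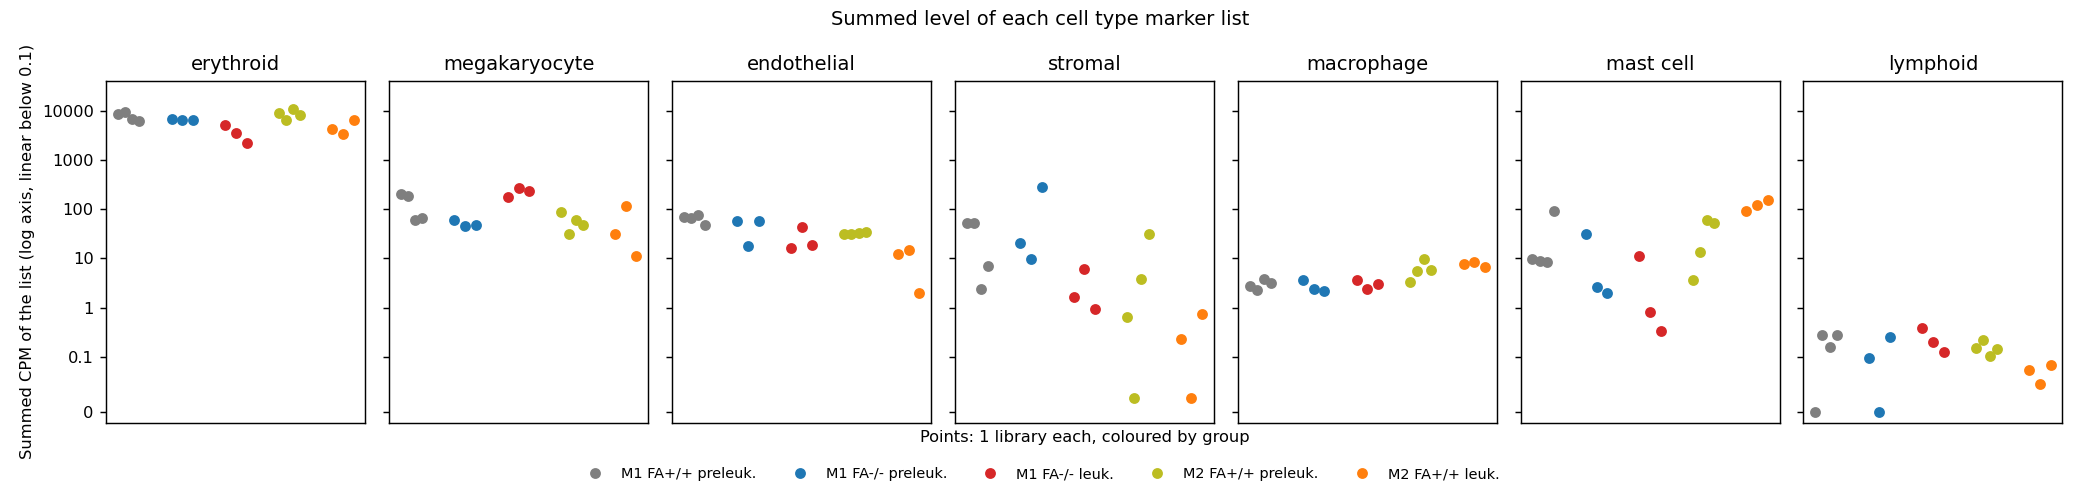
Summed CPM (log axis, linear below 0.1) of 7 cell type marker lists in each library, 1 point per library, coloured by group. The megakaryocyte list was at 173 to 275 CPM in the M1 leukaemic libraries, above the 45.6 to 59.8 CPM of the M1 FA-/- preleukaemic ones, and the erythroid list was lower in leukaemic than in preleukaemic libraries of model 1.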

How the data were processed

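RNA-seq was performed on stranded poly(A) libraries of cultured erythroid blasts. The authors deposited raw read counts per gene, with bcl2fastq 2.17.1.14, STAR 2.5.3a and HTSeq 0.6.1p1 and the mm10/GRCm38 genome named in the submitters' processing notes. The members and lists were chosen with earlier results of these data known, and the members for their levels. Named partner genes were those called and, per list, the 4 uncalled genes of highest mean CPM, with genes behind counts of 5 or fewer named after their values were seen. Counts of model 1 (10 libraries) and model 2 (7 libraries) were fitted separately with edgeR 4.0.16 (R 4.3.3) by quasi-likelihood after filterByExpr and TMM normalisation, with all groups of a model in the fit. The models were fitted together on shared genes to test the difference of leukaemic changes. Genes with a Benjamini-Hochberg adjusted p below 0.05 and a fold change of at least 1.5 were called. DESeq2 1.42.0, DESeq2 size factors, other filters, only the compared groups, each library left out, preleukemic_445 and preleukemic_479 summed and, chosen after the data were seen, the TgSpi1FA+/+ preleukaemic reference were alternatives. The model 2 table, which was deposited in a pair of identical copies, also held 947 genes without a count. Exact counting intervals were computed with scipy 1.17.1 at 95% confidence, and scripts were tested on simulated data. Gene models were those of GENCODE M21, which held 99.804% of the model 1 gene identifiers.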

Additional observations from a re-analysis of the deposited data

Results flagged for a closer look

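Among 10 groups of 4 libraries in which a member exceeded 3 counts, 3 held a library whose ratio of gap to range passed Dixon's 95% level. The members were chosen with these levels known, and several of the values lie near the floor. No chance rate can therefore be set beside these flags, which are a description only. Kdr was at 1.412 CPM in preleukemic_633 of model 2, with a ratio of 0.8553. Cd34 was at 1.966 CPM in the same library, with a ratio of 0.9746, and at 0.2556 CPM in preleukemic_138 of model 1. The latter was the only library of its group with a count, so that its ratio would pass at any level.

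The leukaemic change differed between the models for 5 partner genes by the interaction term of edgeR's quasi-likelihood test, with differences on the log2 scale of 5.861 for Vwf, 2.021 for Smad4, 2.61 for Podxl, 7.896 for Egfl7 and 10.38 for Mcam, each higher in model 1. The share of all 14597 genes called was 4.61%. The model 1 change rests on the 3 preleukaemic libraries with conflicting stage labels, and against the TgSpi1FA+/+ preleukaemic cells it was -0.45 for Vwf. Strain, Fanca genotype, the way the leukaemic cells arose and library preparation differ together between the models and cannot be told apart here.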

How the results depend on the processing

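Between leukaemic and preleukaemic TgSpi1FA-/- cells, 15 partner genes were called, 26 with DESeq2's Wald test, 9 when the third group was left out of the model, and from 5 (without leukemic_28 or preleukemic_224) to 19 (without leukemic_26) with 1 library left out. For the other comparisons by edgeR the count was 0 between preleukaemic genotypes and in model 2, and 0 to 0 with 1 library left out. With DESeq2 the count was 3 in each, beside its calls over all genes given above. For the difference between the models it was 5, with 20 by DESeq2, 3 without a filter on low counts, 3 with preleukemic_445 and preleukemic_479 as 1 library, and from 0 (without preleukemic_77, preleukemic_224, preleukemic_40, leukemic_28, leukemic_39, leukemic_601 or leukemic_921) to 8 (without preleukemic_812) with 1 library left out. The cause of these changes in the counts was not tested. Over all genes, DESeq2 called 1892 higher and 1207 lower of 26029 between leukaemic and preleukaemic TgSpi1FA-/- cells. For the difference between the models it called 1387 higher and 650 lower of 22088. The log2 fold change of Tek in leukaemic TgSpi1FA-/- cells was -0.68 without leukemic_28 (up to 2.56 without preleukemic_77), that of Eng between preleukaemic genotypes was -0.67 without preleukemic_77 (up to 2.35 without preleukemic_138), and that of Vwf was -0.45 with the TgSpi1FA+/+ preleukaemic reference. No paired analysis was possible because no mouse number is shared between groups. Counts near the floor of 3 per library limit what can be said of Tie1, Sox17, Cdh5 and Cd34, and with 3 or 4 libraries per group a single library can set a mean.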
